A study of Arabidopsis thaliana with 4 samples.

Results

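A set of 10 nuclear genes of the mitochondrial dysfunction response of Arabidopsis thaliana were followed in seedlings with and without an intact MOS2 gene. They are the transcription factor genes ANAC017, ANAC013 and CRF6, the genes UPOX, AT12CYS-2, HSP23.5 and OM66 for mitochondrial proteins, the enzyme genes UGT74E2 and SOT12, and AT2G41730. The members were named by locus as genes of the mitochondrial retrograde response, out of 33557 loci listed per library, and 10 of 10 were found. They were chosen by locus with the FPKM difference between Col-0 and mos2-2 in these libraries already known, so that difference counts as part of the choice. Their genotype differences are therefore given as a description, and no test of them is used as support.

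Poly(A) RNA was purified from 14-day-old whole seedlings raised under a 16 h light and 8 h dark cycle, and was sequenced on an Illumina GAIIx. The groups were wild-type Col-0 and mos2-2, a single T-DNA insertion line in the Col-0 background, with 2 libraries each and no treatment. Whether the 2 libraries of each genotype are separate cultures is not in the labels, so the spread between them may be technical. MOS2 encodes a nuclear protein that binds RNA and is needed for normal microRNA maturation. MOS2 itself (AT1G33520) read 50.3 and 36.9 FPKM in the Col-0 libraries against 2.16 and 1.16 FPKM in the mos2-2 libraries, the order the labels give. FPKM counts fragments relative to transcript length and to all mapped fragments of a library, so levels can be set side by side between genes. From the spacing of low values, the libraries held an estimated 4270000 and 6770000 reads in Col-0 and 6780000 and 7020000 reads in mos2-2. Leaf genes were high in every library (CAB1 from 8450 to 20583 FPKM), the root genes PYK10, SCR and SHR were present at 3.38 to 32.0 FPKM, and the root gene GH9C1 was listed at 0 in 3 libraries and at 0.0677 FPKM in the other. Of the seed storage genes, CRU3 and CRA1 were listed at 0, and SESA1 read 0.407 FPKM in Col-0 replicate 1 and 1.02 FPKM in mos2-2 replicate 1, with the other libraries at 0. The floral genes AP3, PI and AG were also above 0 in all 4 libraries, from 0.784 FPKM for AG to 14.8 FPKM for PI, and each was highest in Col-0 replicate 1 and lowest in mos2-2 replicate 1. The part of tissue make-up in the results was not tested. Whole seedlings mix tissues, so fewer cells of a type and less RNA per cell cannot be told apart.

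When respiration is disturbed, plant mitochondria signal to the nucleus, a process called retrograde signalling. ANAC017 is held in the membrane of the endoplasmic reticulum and, upon such stress, is released and moves to the nucleus. There it activates a set of genes that includes its relative ANAC013, and ANAC013 binds a short promoter element, the mitochondrial dysfunction motif. The best known target is AOX1A, which encodes an alternative oxidase that lets electrons bypass part of the respiratory chain.

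The motif was looked up in the RefSeq genome sequence (TAIR10.1) around the annotated start of each gene, since sequence is a property that the expression values did not enter. Its symmetric form is CTTG, 5 bases of any kind and CAAG, and its asymmetric form ends in CACG instead, both read on either strand. The symmetric form is its own reverse complement in the fixed bases, and the forms cannot coincide at one position in the same sense. In the window from 250 bases before to 50 bases after the start, 7 of the 10 genes held a match, against 1.43% of 27438 nuclear protein-coding genes. The symmetric form was in 2 of the 10 and in 0.904% of all windows, and the asymmetric form in 5 of the 10 and in 0.536%. The motif was first described from genes of this response, some of them the same genes, so its presence here is not independent of the choice of members. The matches are shown with 8 bases on each side, in the sense of the gene, with the 13 bases of the motif in capitals.
UPOX (chr2:9254319-9254347, plus strand): tttagtaaCTTGCTCTCCAAGgagatcta
AT2G41730 (chr2:17409353-17409381, plus strand): attaatatCTTGCTGGACAAGcatttttg
HSP23.5 (chr5:20891045-20891073, plus strand): ttattttaCTTGGAGACCACGcagttcta
UGT74E2 (chr1:1704805-1704833, minus strand): ccgcacatCTTGGTCGCCACGgaacatag
ANAC017 (chr1:12451287-12451315, plus strand): acctctgtCGTGTCAGACAAGaatgttgg
AT12CYS-2 (chr5:2970503-2970531, plus strand): gcaagaaaCGTGACGGGCAAGgggaatat
SOT12 (chr2:1150637-1150665, minus strand): atattctaCGTGCTCTTCAAGtaaaggat

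The first pair are symmetric matches. HSP23.5 and UGT74E2 carried the asymmetric form in the sense of the gene, and the last group of 3 carried it on the other strand, where its reverse complement is what is printed. With the last base before the start as position -1, the match began at -110 in both HSP23.5 and ANAC017, at -51 in UPOX and at -9 in AT2G41730. In UGT74E2 and AT12CYS-2 it began at base 14 of the transcribed region and in SOT12 at base 7.

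CRF6 had no match in that window but 2 symmetric matches farther upstream, which began at -298 and -542, shown here because their 13 bases are each other's reverse complement.
CRF6, nearer match (chr3:22804692-22804720, plus strand): aaaagttgCTTGGAGACCAAGctatagat
CRF6, farther match (chr3:22804448-22804476, plus strand): ataagagaCTTGGTCTCCAAGcaaaagat

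ANAC013 and OM66 held neither form between 1000 bases before and 300 bases after the start. That window held a match in 8 of the 10 genes and in 6.1% of all genes. Among other promoter elements, the core of the W-box, TTGAC, was in 6 of the 10 windows of 300 bases and in 50.5% of all, and the G-box, CACGTG, in 2 of the 10 and in 7.68% of all.

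**Figure D1:**
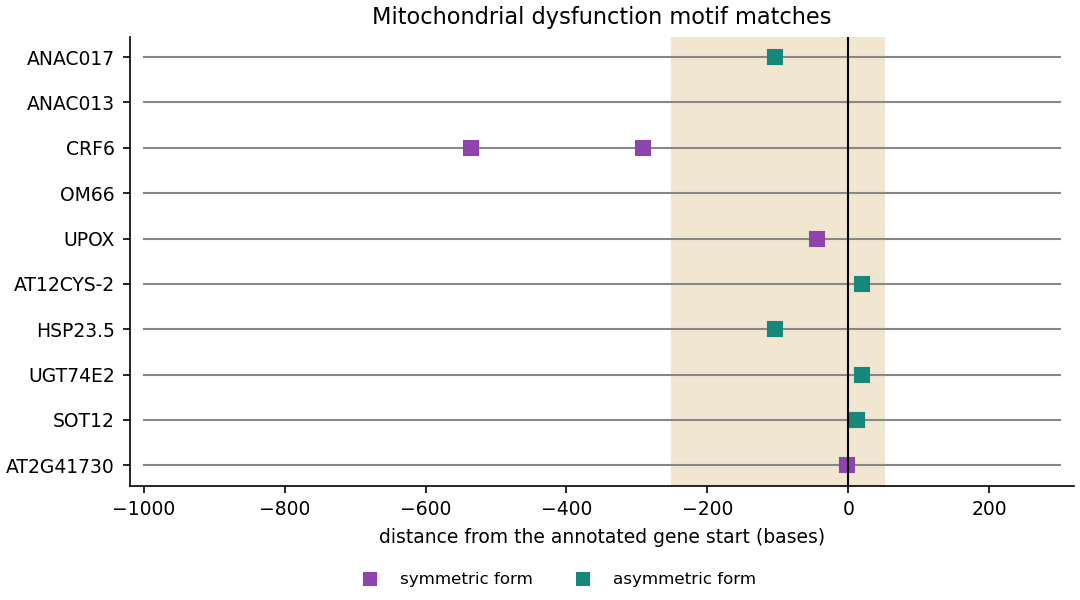
Positions of the mitochondrial dysfunction motif around the start of the 10 genes. The x axis is the distance from the annotated gene start in bases, each square is a match on either strand, purple for the symmetric and green for the asymmetric form, and the shaded band is the window from 250 bases before to 50 after the start, in which 7 genes have a match.

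The 250 bases before the start are printed for UPOX and HSP23.5, the members with the largest differences between genotypes, to show the setting of the motif. The UPOX stretch is chr2:9254128-9254377 and the HSP23.5 stretch chr5:20890913-20891162, both on the plus strand of TAIR10.1.
UPOX upstream: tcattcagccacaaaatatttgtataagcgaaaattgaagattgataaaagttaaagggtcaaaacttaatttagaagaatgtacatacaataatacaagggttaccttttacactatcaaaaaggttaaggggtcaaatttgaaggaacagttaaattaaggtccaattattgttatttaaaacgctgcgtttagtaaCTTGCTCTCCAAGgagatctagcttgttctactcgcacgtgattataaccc
HSP23.5 upstream: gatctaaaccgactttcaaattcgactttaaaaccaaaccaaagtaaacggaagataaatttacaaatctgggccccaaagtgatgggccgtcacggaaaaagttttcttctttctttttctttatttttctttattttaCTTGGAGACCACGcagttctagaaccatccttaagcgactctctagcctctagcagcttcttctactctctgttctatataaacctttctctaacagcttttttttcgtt

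Across the 10 genes, 7 were higher in both mos2-2 libraries than in both Col-0 libraries, 1 was lower in both, and in 2 the genotypes overlapped. Of all 19236 genes tested, those whose mean reached 1 FPKM, 13.1% were higher without overlap and 24.7% lower without overlap. On the log2(FPKM + 1) scale, a gap of 2-fold or more with no overlap was seen in 6 members that were higher, against 1.14% of all genes, and in 1 that was lower, against 3.65% of all genes. The median log2 difference, mos2-2 minus Col-0, was 1.42 over the members and -0.09 over all genes tested. Every member passed the filter on low values, so none is left out of these counts. At a limma p of 0.05, adjusted over all genes by Benjamini and Hochberg, 0 of the 10 passed, against 0.0624% of all genes, of which 0.052% were higher and 0.0104% lower. At an unadjusted p under 0.05 the count was 8 of the 10, 7 higher and 1 lower, against 7.02% of all genes, of which 1.66% were higher and 5.36% lower. Because the members were named with this comparison known, nothing is read from those counts.

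**Figure D2:**
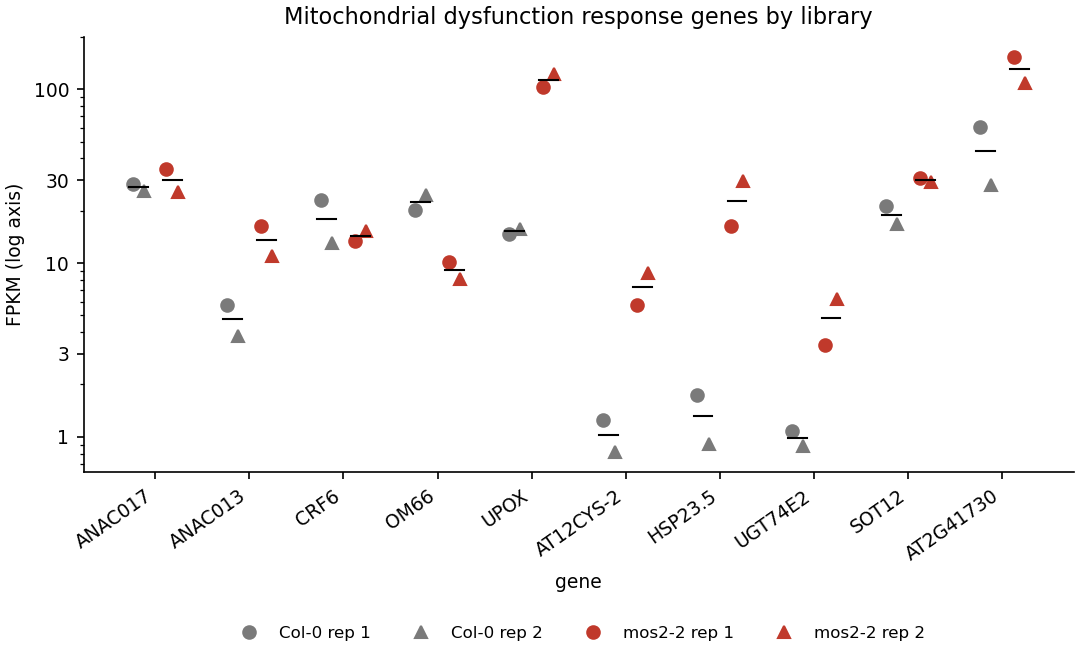
Levels of the 10 genes in each library. The y axis is FPKM on a log scale, grey symbols are Col-0 and red symbols mos2-2, circles are replicate 1 and triangles replicate 2, and short bars are the means of 2 libraries. HSP23.5, UPOX and AT12CYS-2 have their red symbols far above the grey ones, OM66 has them below, and ANAC017 and CRF6 overlap.

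The regulators are described first. ANAC017 (AT1G34190, chromosome 1 from 12451405 to 12454542, plus strand, 4 exons) read 28.5 and 25.9 FPKM in the Col-0 libraries against 34.7 and 25.6 FPKM in the mos2-2 libraries. Its genotypes overlapped, with means of 27.2 ± 1.83 and 30.1 ± 6.43 FPKM (SD, n = 2 each). Its direction turned when mos2-2 replicate 1 was left out, so no direction is given for it.

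ANAC013 (AT1G32870, chromosome 1 from 11911631 to 11913947, plus strand, 3 annotated transcripts) read 5.74 and 3.802 FPKM in the Col-0 libraries against 16.2 and 11.0 FPKM in the mos2-2 libraries. Both mos2-2 libraries lay above both Col-0 libraries, with means of 4.77 ± 1.37 and 13.6 ± 3.69 FPKM (SD, n = 2 each), 2.86-fold higher in mos2-2. The values stand for an estimated 47 and 49 reads in Col-0 and 211 and 148 in mos2-2. A gene on the other strand, AT1G32880, overlaps it, but was listed at 0 in 3 libraries and at 0.356 FPKM in mos2-2 replicate 2.

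CRF6 (AT3G61630, chromosome 3 from 22804998 to 22806527, plus strand, 1 exon), a cytokinin response factor of the AP2/ERF family, read 22.9 and 12.99 FPKM in the Col-0 libraries against 13.4 and 15.2 FPKM in the mos2-2 libraries. Both mos2-2 values lay inside the Col-0 range, and the direction of its difference turned without Col-0 replicate 1. ANAC013 was the only one of the 3 regulators whose genotypes did not overlap, where 37.8% of all genes tested did not.

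Of the 4 genes for mitochondrial proteins, 3 were several-fold higher in mos2-2 and the remaining gene was lower. UPOX (AT2G21640, chromosome 2 from 9254378 to 9255743, plus strand, 3 exons), whose transcript is known to increase under oxidative stress, read 14.7 and 15.8 FPKM in the Col-0 libraries against 103 and 123 FPKM in the mos2-2 libraries. The means were 15.2 ± 0.786 and 113 ± 14.5 FPKM (SD, n = 2 each), 7.41-fold higher in mos2-2. Replicates lay close together relative to that difference, at 0.10 log2 units apart in Col-0 and 0.26 in mos2-2 against a genotype difference of 2.81, the 64th highest of all genes tested.

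HSP23.5 (AT5G51440, chromosome 5 from 20891163 to 20892416, plus strand, 2 exons), a small heat shock protein of mitochondria, read 1.73 and 0.906 FPKM in the Col-0 libraries against 16.2 and 29.5 FPKM in the mos2-2 libraries. The means were 1.32 ± 0.581 and 22.9 ± 9.39 FPKM (SD, n = 2 each), 17.4-fold higher in mos2-2 and the largest fold among the members. The Col-0 values rest on an estimated 8 and 7 reads, so the fold is less precise than that of UPOX, which had 46 and 78. The log2 difference was 3.33, the 43rd highest of all genes tested, and became 4.02 with a pseudocount of 0.1 and 2.10 with a pseudocount of 5.

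AT12CYS-2 (AT5G09570, chromosome 5 from 2970498 to 2972222, plus strand, 5 exons), a small cysteine-rich protein, read 1.24 and 0.814 FPKM in the Col-0 libraries against 5.70 and 8.78 FPKM in the mos2-2 libraries. The genotypes did not overlap and the mean was 7.05-fold higher in mos2-2, on an estimated 5 reads in each Col-0 library. Its close relative AT12CYS-1 (AT5G64400) was far more abundant and read 359 and 311 FPKM in the Col-0 libraries against 272 and 441 FPKM in the mos2-2 libraries, with overlap.

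OM66 (AT3G50930, chromosome 3 from 18929526 to 18932181, plus strand, 1 exon), an ATPase of the outer mitochondrial membrane, went the other way. It read 20.3 and 24.7 FPKM in the Col-0 libraries against 10.2 and 8.08 FPKM in the mos2-2 libraries, with means of 22.5 ± 3.11 and 9.12 ± 1.47 FPKM (SD, n = 2 each), so that mos2-2 was 2.46-fold lower. OM66 also responds to salicylic acid and pathogens, as background. Its relative AT2G18193, which encodes an ATPase of the same family on chromosome 2, read 1.09 and 0.435 FPKM in the Col-0 libraries against 20.8 and 19.6 FPKM in the mos2-2 libraries, 26.46-fold higher, with a limma adjusted p of 0.0792 that did not pass. The upstream region of AT2G18193 held an asymmetric match that began at -90, and that of OM66 held none. The relative nearest to OM66 by position is AT3G50940, 1570 bases away. It was below the filter, at 0.467 and 0.294 FPKM in the Col-0 libraries against 1.37 and 0.189 FPKM in the mos2-2 libraries, with overlap.

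Both enzyme genes were higher in mos2-2. UGT74E2 (AT1G05680, chromosome 1 from 1703002 to 1704838, minus strand, 2 exons), a glucosyltransferase of the auxin precursor indole-3-butyric acid, read 1.08 and 0.881 FPKM in the Col-0 libraries against 3.40 and 6.20 FPKM in the mos2-2 libraries, 4.88-fold higher. Those values stand for an estimated 8 and 10 reads in Col-0 and 40 and 76 in mos2-2. Its neighbour UGT74E1 (AT1G05675), 253 bases away, read 7.74 and 6.76 FPKM in the Col-0 libraries against 9.99 and 5.27 FPKM in the mos2-2 libraries, with overlap, and a match of the motif begins at -108 from its start. The pair are related in sequence, and how reads that match both were counted is not given in the sources used here.

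SOT12 (AT2G03760, chromosome 2 from 1149295 to 1150663, minus strand, 1 exon), a sulfotransferase that acts on brassinosteroids and salicylic acid, had the smallest difference among the 7 higher genes. It read 21.2 and 16.8 FPKM in the Col-0 libraries against 30.9 and 29.2 FPKM in the mos2-2 libraries, 1.58-fold higher without overlap. The sulfotransferase gene next to it, AT2G03750, only 34 bases away, read 30.4 and 32.1 FPKM in the Col-0 libraries against 14.8 and 23.60 FPKM in the mos2-2 libraries, the opposite order.

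AT2G41730 (chromosome 2 from 17409370 to 17410334, plus strand, 1 exon) has no gene symbol in the annotation. It was the most abundant member in both genotypes, with 60.5 and 28.2 FPKM in the Col-0 libraries against 155 and 108 FPKM in the mos2-2 libraries. The genotypes did not overlap and the mean was 2.96-fold higher in mos2-2, but the Col-0 replicates lay 1.07 log2 units apart, the widest gap among the members, against a genotype difference of 1.62.

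The order of levels differed between genotypes. In Col-0, AT2G41730 and ANAC017 led with ranges that overlapped, and ANAC017 lay above the rest. OM66, SOT12 and CRF6 followed with ranges that all overlapped, and UPOX overlapped CRF6 alone of these. ANAC013 stood apart below them, and HSP23.5, AT12CYS-2 and UGT74E2 overlapped near 1 FPKM. In mos2-2, AT2G41730 and UPOX led with ranges that overlapped. ANAC017, SOT12 and HSP23.5 overlapped each other. ANAC013 overlapped CRF6 and, barely, HSP23.5, while HSP23.5 and CRF6 were apart. OM66 lay below ANAC013 and overlapped AT12CYS-2, which overlapped UGT74E2. Within genotypes the members did not share an order of replicates. In Col-0 8 of the 10 were higher in replicate 1 and in mos2-2 5 were, against 62.8% and 58.2% of all genes tested. HSP23.5, AT12CYS-2, UGT74E2, UPOX and CRF6 were higher in mos2-2 replicate 2, while ANAC013, AT2G41730, OM66, SOT12 and ANAC017 were higher in replicate 1. The genotype difference exceeded the gap between replicates of either genotype in 8 of the 10 genes, all but ANAC017 and CRF6. The share of all genes that meet this was not counted. The difference was part of the choice of members, so nothing is read from that count.

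**Figure D3:**
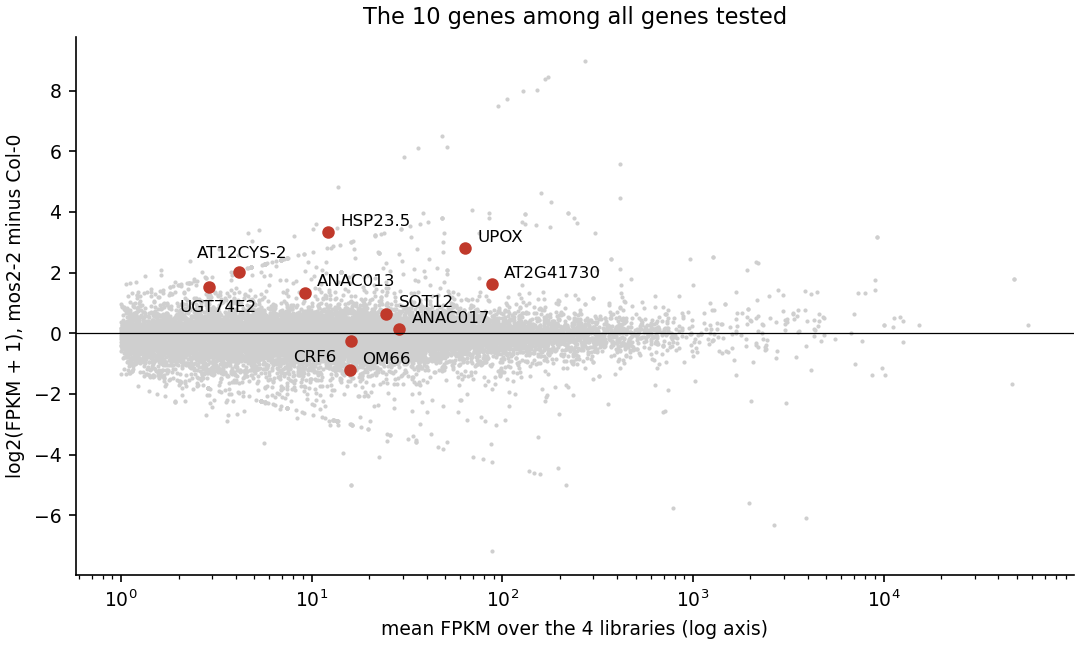
Difference between genotypes against level for 19236 genes. The x axis is the mean FPKM over 4 libraries on a log scale and the y axis the log2(FPKM + 1) difference, mos2-2 minus Col-0, with grey points for all genes and red points for the 10 members. The members range from -1.22 for OM66 to 3.33 for HSP23.5, and ANAC017 and CRF6 lie within the grey band.

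Other genes of the pathway were taken from 7 lists, which were chosen with earlier results of these data known. Over the 100 genes of these lists that were tested, limma with Benjamini-Hochberg adjustment over all genes called 0, against 0.0624% of all genes. At an unadjusted limma p under 0.05, 8 were higher and 4 lower, against 1.66% and 5.36% of all genes tested. The median log2 difference of the 100 was -0.09, like that of all genes.

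Further genes reported to respond to mitochondrial dysfunction were mostly higher in mos2-2, without passing the test. This list, too, was chosen with earlier results of these data known, so its counts are a description and not independent support. Of 11 listed, 10 were tested, 8 were higher and 2 lower, where 40.6% of all genes were higher, with a median log2 difference of 0.93, and 6 were higher without overlap, against 13.1% of all genes. AOX1A (AT3G22370) read 17.6 and 33.2 FPKM in the Col-0 libraries against 50.04 and 59.0 FPKM in the mos2-2 libraries, 2.15-fold higher (limma adjusted p 0.684). The mitochondrial NAD(P)H dehydrogenase gene NDB2 (AT4G05020), which often accompanies AOX1A, read 4.77 and 4.82 FPKM in the Col-0 libraries against 2.30 and 5.43 FPKM in the mos2-2 libraries, with overlap. The transporter gene AT2G04050 was 19.5-fold higher (adjusted p 0.0727), its neighbour AT2G04070 3.74-fold higher and the stomatin-like gene SLP2 2.17-fold higher (both adjusted p 0.633). None of these passed. AOX1A, NDB2, AT2G04050 and SLP2 each had the motif in the 300-base window. Over all 7 lists 11 tested genes had it, the others being AT2G18193, UGT74E1, MTHSC70-1, CI51, PHB3, ADH1 and SUS1. ADH1, SUS1 and CI51 were lower in mos2-2 without overlap, with log2 differences of -0.52, -0.63 and -0.29. MTHSC70-1 was higher without overlap (0.59), and the genotypes overlapped in PHB3 and UGT74E1. The matches of AOX1A, AT2G04050, SLP2 and AT2G18193 are shown because these were, among the tested genes of the lists, those with the motif and a mean FPKM at least 2-fold apart, a choice made after the values were seen. On the log2(FPKM + 1) scale SLP2 differed by 0.992, short of 2-fold, so it is not among the 2-fold genes counted below.
AOX1A, first match (chr3:7906510-7906538, plus strand): atctagctCTTGGCGACCACGcaagtatc
AOX1A, second match (chr3:7906537-7906565, plus strand): tcttccatCTTGCTCTCCAAGaaaaatct
AT2G04050, nearer match (chr2:1339604-1339632, minus strand): tatacgaaCTTGGTCCCCAAGtatatttc
AT2G04050, farther match (chr2:1339663-1339691, minus strand): tattagaaCTTGATTCCCAAGtaatcttt
SLP2 (chr5:21956677-21956705, minus strand): tacaaattCGTGATAAGCAAGaaaaacaa
AT2G18193 (chr2:7919415-7919443, minus strand): gtaatttcCTTGCACCGCACGcttccttc

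The 13 bases of the second AOX1A match are the same as those of UPOX. Genome-wide, 170 tested genes other than the members had the motif in the 300-base window. Of these, 12 were at least 2-fold higher in mos2-2 without overlap, which is 7.06% against 1.14% of all genes tested, and 3 were at least 2-fold lower, which is 1.76% against 3.65%. Their median log2 difference was 0.005 against -0.09 over all genes, and 108 of them (63.5%, against 74.2% of all genes) lay within 0.5 log2 units of no difference. None of the 170 passed limma, against 0.0624% of all genes. At an unadjusted limma p under 0.05, 15 were higher and 5 lower, against 1.66% and 5.36% of all genes tested. The 12 include listed genes that are described above and share their values, namely AT2G18193, AT2G04050 and AOX1A. NAC044 (AT3G01600), another NAC transcription factor gene, was also among them, at 0.184 FPKM in Col-0 replicate 1, listed at 0 in Col-0 replicate 2, and at 9.24 and 11.6 FPKM in mos2-2. In NAC044, AT2G18193, AT2G04050, AT2G03130 and AT3G14700 the Col-0 mean was under 1 FPKM, so they were tested only through their mos2-2 values. Of the 3 lower genes, AT1G62170 was tested only through its Col-0 values. The share of 7.06% is therefore a description and not support.

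A list of further genes that control the response, apart from the members ANAC013, ANAC017 and CRF6, had small mean differences. Of 10 listed regulators 8 were tested, 3 were higher and 5 lower, all within 0.5 log2 units of no difference, as were 74.2% of all genes tested. At an unadjusted limma p under 0.05 the count was 0, against 7.02% of all genes. For some the replicates lay far apart, as in Col-0 for MYB29 (2.49 and 14.1 FPKM) and WRKY40 (38.0 and 96.6 FPKM), so a difference could be missed. RCD1 (AT1G32230), a nuclear protein that binds ANAC013 and ANAC017 and holds them back, read 74.8 and 63.9 FPKM in the Col-0 libraries against 61.6 and 50.2 FPKM in the mos2-2 libraries (limma adjusted p 0.828). Its relative SRO1 (AT2G35510) read 20.0 and 18.8 FPKM in the Col-0 libraries against 13.1 and 14.2 FPKM in the mos2-2 libraries (adjusted p 0.751). Both were lower without overlap, and they make up 25% of the 8 tested, against 24.7% of all genes. Of 12 listed genes for other NAC factors tethered to membranes 9 were tested, 4 higher and 5 lower. All 9 overlapped, where 37.8% of all genes tested did not, and 0 had an unadjusted limma p under 0.05, against 7.02%. Below the filter, ANAC103 (AT5G64060) read 0.140 and 0.353 FPKM in the Col-0 libraries against 1.05 and 1.19 FPKM in the mos2-2 libraries. ANAC040 (AT2G27300), also below it, read 0.253 and 0.159 FPKM in Col-0 against 0.634 and 0.920 FPKM in mos2-2. Both were higher without overlap, and in ANAC060, the remaining gene below the filter, the genotypes overlapped. ANAC016 (AT1G34180), which lies 118 bases from ANAC017 and is its close relative, read 1.80 and 2.75 FPKM in the Col-0 libraries against 1.97 and 1.39 FPKM in the mos2-2 libraries.

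Of 25 family relatives of the members 19 were tested, 6 higher and 13 lower (68.4%, against 59.4% of all genes tested), with a median log2 difference of -0.23 against -0.09 over all genes. Of the 19, AT2G18193 was higher without overlap and 6 (31.6%) were lower without overlap, against 24.7% of all genes tested. The sulfotransferase genes SOT14 (3.93-fold lower, limma adjusted p 0.633), SOT16 (1.82-fold lower, adjusted p 0.661) and AT2G03750 (1.63-fold lower, adjusted p 0.733) were in the order opposite to SOT12, and none passed. SOT15 was also lower without overlap (5.86-fold, limma adjusted p 0.795), but its Col-0 libraries lay far apart, at 0.498 and 3.77 FPKM. HSP23.6 (AT4G25200), the closest relative of HSP23.5 among mitochondrial small heat shock proteins, was listed at 0 in both wild-type libraries and read 0.183 and 0.177 FPKM in the mutant, below the filter. Also below it and without overlap were AT2G18190, an ATPase gene related to OM66, with 0.159 and 0.050 FPKM in wild type against 1.19 and 1.83 FPKM in the mutant, and AT2G03770, a sulfotransferase gene, listed at 0 in both wild-type libraries and at 0.330 and 0.160 FPKM in the mutant. The cytokinin response factor genes CRF1 to CRF5, CRF7 and CRF8 ran from 0.306 FPKM for CRF3 in mos2-2 replicate 1 to 39.4 FPKM for CRF8 in Col-0 replicate 2. CRF2 and CRF3 were lower without overlap, with log2 differences of -0.56 and -0.70 (limma adjusted p 0.795 for each). In CRF1, CRF4, CRF5, CRF7 and CRF8 the genotypes overlapped.

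Core mitochondrial genes for respiratory complexes, protein import, chaperones and proteases lay near their Col-0 level. All 38 were tested, 15 higher and 23 lower, with a median log2 difference of -0.05 against -0.09 over all genes, and 36 (94.7%) lay within 0.5 log2 units of no difference, as did 74.2% of all genes. The exceptions were TOM20-4 (AT5G40930), an import receptor of the outer membrane, with 27.3 and 30.1 FPKM in the Col-0 libraries against 50.5 and 52.1 FPKM in the mos2-2 libraries, and the chaperone gene MTHSC70-1 (AT4G37910), at 44.5 and 37.2 FPKM against 57.9 and 65.9 FPKM. Neither passed (limma adjusted p 0.635 and 0.733).

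Lists of other stress responses were examined beside these. The 9 tested hypoxia genes had a median log2 difference of -0.52 against -0.09 over all genes. Of these, 2 were higher and 7 lower (77.8%, against 59.4% of all genes tested). Without overlap, 2 (22.2%) were higher and 6 (66.7%) lower, against 13.1% and 24.7% of all genes. HRE2 (AT2G47520), an ERF transcription factor gene, was at 0.846 FPKM in Col-0 replicate 1, listed at 0 in Col-0 replicate 2, and at 4.51 and 11.0 FPKM in the mos2-2 libraries (limma adjusted p 0.602). The fermentation gene PDC1 (AT4G33070) was 5.11-fold higher (adjusted p 0.633), and the haemoglobin gene HB1 (AT2G16060) was 2.90-fold lower (adjusted p 0.680). HRA1, a repressor of the hypoxia response, was 2.42-fold lower (adjusted p 0.711), and none of these genes passed. The 7 tested oxidative stress genes had a median of -0.47, with 3 higher and 4 lower. Without overlap, 0 were higher and 3 (42.9%) lower, against 13.1% and 24.7% of all genes. Those 3 were BAP1 (1.75-fold lower), GSTU24 (1.63-fold lower) and ZAT12 (1.41-fold lower), with limma adjusted p of 0.756, 0.776 and 0.795. None of the 7 had an unadjusted p under 0.05.

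**Figure D4:**
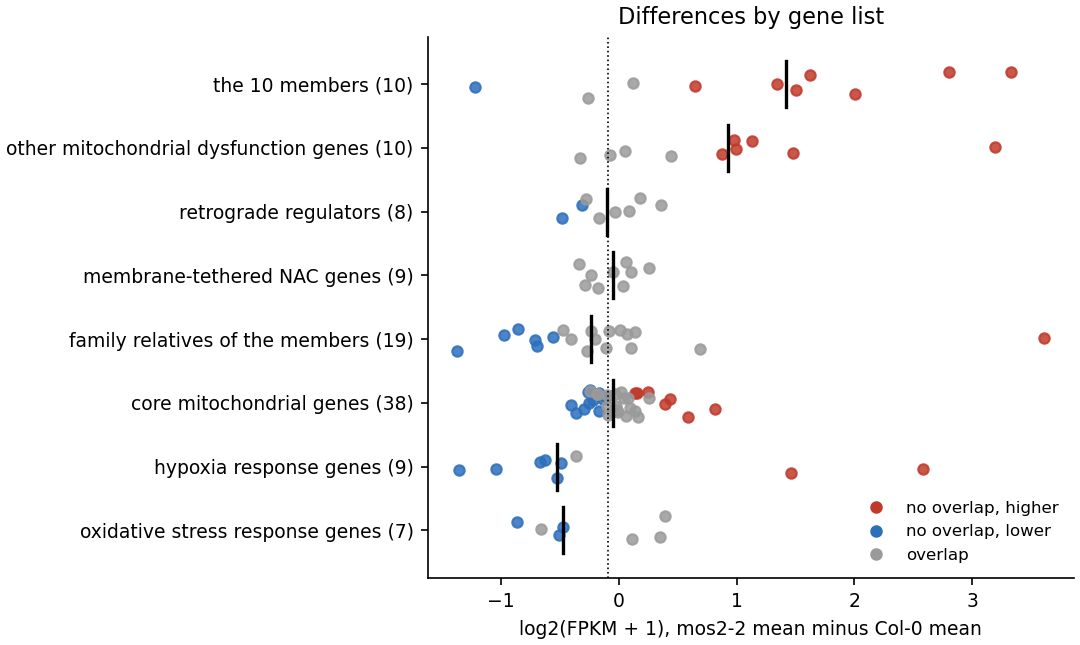
Log2(FPKM + 1) differences, mos2-2 minus Col-0, of the 10 members and of the tested genes of 7 lists, whose number is in brackets. Each point is a gene, red or blue where the genotypes do not overlap and grey where they do, the black bars are list medians (1.42 for the members and 0.93 for other mitochondrial dysfunction genes), and the dotted line is the median of all genes tested, -0.09.

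The genes whose pattern over the 4 libraries came nearest to the mean pattern of the members, by Euclidean distance of centred log2(FPKM + 1) values among 14152 other genes whose mean reached 5 FPKM, were LHCA6 (AT1G19150, distance 0.120), NDHM (AT4G37925, 0.189), AT3G19480 (0.192), GTF2H2 (AT1G05055, 0.199) and AT3G62050 (0.213). With 4 libraries this likeness describes little more than a difference of about the same size between genotypes. LHCA6, which encodes an antenna protein of photosystem I, read 140 and 109 FPKM in the Col-0 libraries against 250.1 and 283 FPKM in the mos2-2 libraries.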

How the data were processed

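The deposited FPKM, per gene and library, come from TopHat alignment and Cuffdiff quantification by the authors against TAIR10, per the submitters' processing notes. Not given in the sources used here are their versions, the annotation release, whether strand was used and how reads matching several places were treated. FPKM were used as deposited. The members, lists and motif were chosen with earlier results of these data known.

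Genes whose mean reached 1 FPKM (19236 of 33557) entered a limma fit (3.58.1, R 4.3.3) of log2(FPKM + 1) on genotype alone, with a trend of variance on level, two-sided tests and Benjamini-Hochberg adjustment over all genes at 0.05. The mean was taken over all 4 libraries, so a gene under 1 FPKM in 1 genotype could enter through the other. Among the named genes, UGT74E2, AT2G18193, AT2G04050, NAC044, AT2G03130, AT3G14700, HRE2 and PDC1 entered through mos2-2 in this way. CRF3, SOT15 and AT1G62170 entered through Col-0. The fit was also run on simulated data, with independent noise and with changes placed only in genes whose mean reached 5 FPKM. That run does not cover changes in low genes and is not used as support. Log2 differences understate changes of low genes, and folds are ratios of mean FPKM. Named were all members, up to 4 genes per list by smallest p, AOX1A, NDB2, the relatives nearest by position, the 5 genes most like the members and MOS2; other named genes were chosen after their values were seen.

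Read numbers are estimates: the densest value of FPKM times kilobases, between 1500 and 2200 nt, was taken as 1 read. Lengths, coordinates and promoter sequence came from TAIR10.1 (RefSeq), with 32810 loci matched. No coordinates of another build were used. Depth and 2 libraries per genotype limit precision, and alternatives are given in the closing section.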

Additional observations from a re-analysis of the deposited data

How the results depend on the processing

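The median log2 difference of the members was 0.81 with a pseudocount of 5 and lay between 1.09 and 1.58 with 1 library left out. The members without overlap numbered 8, against 37.8% of all genes, and 9 with quantile normalization (39.1%) or median-ratio scaling (39.5%). They also numbered 9 with any 1 library left out, where 1 value faces 2 and 64.3% to 74.5% of all genes do not overlap. In each of the scalings and pseudocounts tried 8 members were higher and 2 lower, and with 1 library left out only CRF6 (without Col-0 replicate 1) and ANAC017 (without mos2-2 replicate 1) turned direction. Quantile normalization moved the median of all genes from -0.09 to 0.0125, and the genes at least 2-fold apart without overlap from 220 higher and 703 lower to 302 and 550. Other changes of member differences past the spread between replicates came with pseudocounts of 0.1 or 5.

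Of all genes, 12 passed in the fit described. A pseudocount of 5 left 4, dropping the filter on low values gave 91 and dropping the trend 7. With any 1 library left out 0 passed, where 1 residual degree of freedom remains and the single library of a genotype is taken to vary as the other genotype does. With the replicate number as a block 6 passed. Whether same-numbered libraries were handled together is not in the labels, which give only the number. Deviations of same-numbered libraries correlated with r = 0.211 across genes. No member passed under any of these settings. Of the listed genes 1, HSP23.6, passed without a filter, on values under 0.2 FPKM. The causes were not tested.

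The motif was in 7 member windows, in 3 with only the 250 bases before the start, in 2 with the symmetric form alone, in 4 with 1000 bases before the start and in 8 with 300 bases after it added. The longer windows were chosen after seeing the data. Depth limits HSP23.5, AT12CYS-2 and UGT74E2 most, with 5 to 10 estimated reads in Col-0.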
